A study of Mus musculus with 30 samples.

Results

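Within 1 kb of the 3′ ends of protein-coding genes, 1010 CTCF sites were found in the trunk of the mid-gestation mouse embryo, out of 46282 CTCF sites on the autosomes (2.18%). A site was a group of peak summits from the 3 wild-type (WT) CTCF peak lists, linked within 150 bp, with a peak of every WT list over its median summit. It counted as a 3′-end site when that summit lay within 1 kb of the strand-aware end of a RefSeq gene and more than 1 kb from every protein-coding gene start. The 1010 sites belonged to 949 genes, of which 58 had more than 1 site and none had more than 3. The remaining 45272 autosomal sites comprised 2842 promoter sites (within 1 kb of a start), 20977 in gene interiors and 20384 between genes (both over 1 kb from any gene edge), and others near an edge of a gene whose strand was not known. Among them were 211 sites near both an end and a start, which were left out of the 3′-end set. Strand was known for 16457 of 20665 autosomal protein-coding genes, so the ends of the other 4208 genes could not contribute, and sites there count among the other sites. On chromosome 18 gene ends were not analysed here.

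CTCF and RAD21 were mapped by ChIPmentation, chromatin immunoprecipitation in which Tn5 transposase inserts the sequencing adapters while the chromatin is on the beads. Trunks of single B6CBAF1 embryos at E10.5 were used, from homozygous carriers of an allele with mutated CTCF binding sites (CBS) in the Hoxd cluster or from control littermates. There were 3 CTCF and 3 RAD21 libraries of Del(CBS1), 1 and 2 of Del(CBS1-2), 2 and 2 of Del(CBS1-3), 2 and 2 of Del(CBS1-4), 2 and 2 of Del(CBS1-5), 1 and 1 of Del(CBS2), and 3 and 4 of WT. Del(CBS1-3), for instance, was taken to carry mutations of CBS 1, 2 and 3 together. The labels give no coordinates for these sites. A trunk holds many cell types, and peak lists hold no expression values, so the labelled tissue could not be checked against markers. Lists ranged from 40011 to 88323 peaks for CTCF and from 16676 to 48102 for RAD21. Read depth was unknown, and a longer list covers more sites.

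CTCF is a zinc-finger protein that binds an oriented DNA motif and halts the cohesin ring as it extrudes chromatin loops. RAD21 is the subunit that closes the ring, and its peaks mostly mark places where cohesin is held. Transcribing polymerase can push cohesin along a gene, and cohesin has been seen at the ends of active and converging genes in yeast and, when CTCF and the cohesin release factor WAPL are missing, in mouse cells. Gene ends are also where the transcript is cleaved and the polymerase leaves the template.

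Sequence was at hand only where a 3′-end site fell inside the window that RefSeq start sequences cover around the listed start of some other transcript, which held for 3 of the 1010 sites. The window of 1 of these sites overlapped the gene itself and is not shown, although it held a near match to the CTCF motif. The 2 shown also held a near match, and their windows did not overlap the gene whose end was near. The first is 670 bp beyond the end of Ptf1a, a pancreatic and neural transcription factor, inside the start window of 1810010K12Rik on the plus strand (GRCm38.p6, chr2:19448018-19448317), with the CTCF summit at base 154. The second is 760 bp beyond the end of A630095N17Rik, inside a start window of Tuba4a, an alpha-tubulin gene, on the minus strand (GRCm38.p6, chr1:75219245-75219544), with the summit at base 210. Sequences are from RefSeq, 5′ to 3′ along the named strand. Capitals mark stretches that match a core of the CTCF motif, CC, 3 free bases (NNN), AG, 2 free bases (NN) and GGC, on either strand with at most 1 of the fixed letters differing.
Ptf1a end site: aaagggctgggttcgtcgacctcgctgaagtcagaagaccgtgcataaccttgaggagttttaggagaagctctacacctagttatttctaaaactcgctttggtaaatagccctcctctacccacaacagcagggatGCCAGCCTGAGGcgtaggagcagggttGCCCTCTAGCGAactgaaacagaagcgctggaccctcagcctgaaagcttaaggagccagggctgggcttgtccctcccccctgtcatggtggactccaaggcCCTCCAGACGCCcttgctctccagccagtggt
A630095N17Rik end site: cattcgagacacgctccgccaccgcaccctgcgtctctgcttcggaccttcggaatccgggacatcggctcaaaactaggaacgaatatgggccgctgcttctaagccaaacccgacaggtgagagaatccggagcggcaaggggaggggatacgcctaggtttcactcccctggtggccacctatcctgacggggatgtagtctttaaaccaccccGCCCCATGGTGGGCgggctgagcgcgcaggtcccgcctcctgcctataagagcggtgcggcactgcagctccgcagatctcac
Neither window held an exact match, or a match to a stricter form that begins with CCA in place of CC and a free base. The exact core was present, on either strand, in 8.61% of all 32851 start windows of this length and in 39% of the 1679 that hold a CTCF summit, and the stricter form in 2.43% and 15.8%. With 1 differing letter allowed, a choice made after the exact letters gave no match, the shares were 65.0% and 94.5%. Both sites were below the middle of the 3′-end set in strength. The Ptf1a end site had a WT CTCF fold enrichment of 5.71 ± 0.411 (SD, n = 3), and RAD21 covered it in 2 of 16 libraries. The A630095N17Rik end site had 5.45 ± 0.621, and RAD21 covered it in 1 of 16 libraries.

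The Hoxd genes, homeobox transcription factors that pattern the trunk and limbs, had 3′-end sites whose CTCF peaks were missing from whole alleles. The window from beyond Evx2 to beyond Hoxd1 (mm10, chr2:74632989-74785142) held 12 CTCF sites, and 2 of them were 3′-end sites. The Hoxd11 end site, at position 74686497 and 519 bp before the annotated end of the gene, lost its CTCF peak in both Del(CBS1-5) libraries. Its CTCF fold enrichment, the ratio of the summit to its local background, was 15.0, 4.76 and 5.4 in the Del(CBS1) libraries, 9.61 in the Del(CBS1-2) library, 10.7 and 4.54 with Del(CBS1-3), 7.37 and 6.10 with Del(CBS1-4), and 9.63 for Del(CBS2), against 13.0, 9.66 and 11.8 in WT. The mutant values spread more widely than the WT values and overlapped them. RAD21 covered the Hoxd11 end site with a fold of 4.34 in 1 of 3 Del(CBS1) libraries, of 5.47 and 4.64 with Del(CBS1-2), of 3.84 and 4.46 with Del(CBS1-3), and of 6.07 and 5.01 with Del(CBS1-4), against 2.41 and 4.25 in 2 of 4 WT libraries. No RAD21 peak covered it in Del(CBS1-5) or in Del(CBS2).

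The Hoxd10 end site, at position 74694237 and 869 bp before the gene's end, had a CTCF peak in 8 of 14 libraries. Its fold enrichment was 9.51, 3.68 and 3.95 in the Del(CBS1) libraries, 6.49 with Del(CBS1-2) and 8.38 for Del(CBS2), against 9.41, 7.29 and 8.04 in WT. No peak covered it in the 6 libraries of Del(CBS1-3), Del(CBS1-4) and Del(CBS1-5). RAD21 covered it in 0 of 16 libraries, WT included. Among the 26 3′-end sites found in 8 or fewer CTCF libraries, the Hoxd10 end site had the highest mean WT fold, 8.25 ± 1.08 (SD, n = 3), and the next was 7.08 at the end of Srgap3. Because the labels give no coordinates for the mutated sites, whether the Hoxd11 and Hoxd10 end sites are among them was not tested. Binding in fewer cells and weaker binding in each cell cannot be told apart in whole trunks.

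**Figure D1:**
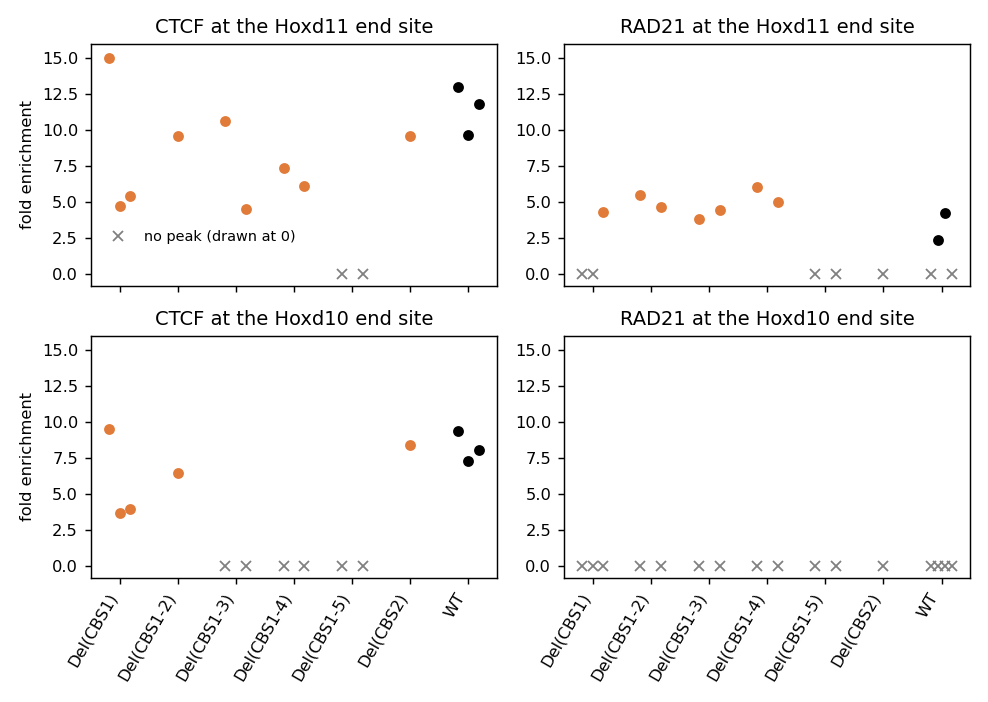
Fold enrichment of CTCF (left) and RAD21 (right) at the Hoxd11 (top) and Hoxd10 (bottom) end sites, 1 point per library, with mutant alleles to the left of WT and a cross at 0 where no peak covered the site. Both Del(CBS1-5) libraries have no CTCF peak at the Hoxd11 end site. The 6 libraries of Del(CBS1-3), Del(CBS1-4) and Del(CBS1-5) have none at the Hoxd10 end site, and no RAD21 peak covers the Hoxd10 end site in any of the 16 libraries.

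The 1010 sites ranged widely in strength. Their mean WT CTCF fold ran from 2.23 to 21.7, with a median of 8.56 and quartiles at 5.74 and 11.9, and the median of the other sites was 8.39. A CTCF peak was present in all 14 libraries at 738 of the 3′-end sites (73.1%) and at 65.0% of the other sites, and no 3′-end site was in fewer than 4. The median distance to the gene end was 494.5 bp, and 81 sites lay within 100 bp of it. Another CTCF site lay within 1 kb of 141 3′-end sites (14%) and of 10.6% of the others. Spans of long non-coding RNA genes held 45 of the 3′-end sites (4.46%) and 10.2% of the others. By chromosome, most were on chromosomes 7 (98), 2 (97) and 11 (96).

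The strongest CTCF at gene ends lay mostly just beyond them and was covered by RAD21 in every library. Of the 12 sites with the highest mean WT CTCF fold (17.1 to 21.7), 11 were beyond the end and 12 had RAD21 in all 16 libraries. They belonged to Csrp1, Ivd, Slc4a3, Kcnd3, Lars2, Srxn1, Rps19, Ebi3, Ebf1, Slitrk3, Tmcc2 and Plxna2. Of all 3′-end sites, 57.2% lay beyond the end. High RAD21 coverage was not particular to gene ends. In the strongest quartile of WT CTCF, RAD21 covered 93.8% of 3′-end and 92.1% of other sites on average over the 16 libraries. At Csrp1, which encodes a LIM-domain protein of the actin cytoskeleton, the site lay 871 bp beyond the end (chromosome 1, position 135753100). CTCF there ranged from 15.3 to 24.2 in the 11 mutant libraries, with a median of 18.2, and was 24.1, 19.1 and 19.3 in WT. RAD21 ranged from 11.4 to 21.5 in the 12 mutant libraries, median 15.7, and was 14.7, 16.4, 13.0 and 14.6 in WT. The mutant and WT values overlapped for both proteins. At Ivd, an enzyme of leucine breakdown, the site lay 693 bp beyond the end. Its CTCF fold ran from 11.7 to 22.8 in mutants, median 16.8, against 22.6, 17.4 and 19.4 in WT. At Slc4a3, an anion exchanger, the site lay 284 bp beyond the end, with CTCF from 12.2 to 19.6 in mutants, median 16.5, against 19.5, 18.4 and 17.9 in WT. At Csrp1, Ivd and Slc4a3 the mutant median of CTCF lay below all 3 WT values, while the ranges overlapped. These sites were chosen for their high WT fold, which favours high WT values, so this order cannot be read as a change in mutants. Folds are set within each list, and a shift shared by all sites of a library was not removed from them.

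RAD21 was highest at a site that stood apart from all others at gene ends. The Lars2 end site (chromosome 9, position 123462003), 672 bp before the end of the gene for mitochondrial leucyl-tRNA synthetase, had a RAD21 fold of 20.8 to 36.6 in the 12 mutant libraries, median 28.4, and of 29.0, 27.6, 27.6 and 33.1 in WT. Its WT mean was 29.3 ± 2.62 (SD, n = 4), and the next 3′-end site had 18.8. Away from gene ends such a value was also reached, the highest among the other CTCF sites being 28.7. CTCF at the Lars2 end site was 16.3 to 35.7 in mutants, median 24.5, and 18, 20.0 and 27.2 in WT. The lists hold no measure of how uniquely reads map, so repeated sequence at this site was not examined. The next RAD21 sites were those of Slitrk3, a neuronal membrane protein, at 18.8 ± 2.34, Tmcc2 at 16.8 ± 1.75, Ivd at 16 ± 1.15 and Ebf1, a transcription factor of B cells and neurons, at 15.4 ± 1.2 (SD, n = 4 WT). Riok2, a kinase of ribosome maturation, had 15.1 ± 1.69, Atp7b, a copper transporter, 14.9 ± 2.44, and Umodl1 14.8 ± 1.46. Of these 8 sites, 5 were also among the 12 strongest for CTCF, and 6 lay beyond the gene end. Over the 446 sites with RAD21 in all 4 WT libraries, the RAD21 fold ran from 2.86 to 29.3 with a median of 7.39. The Spearman correlation of the CTCF and RAD21 folds across these 446 sites was 0.52, a description over sites measured in the same libraries.

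**Figure D2:**
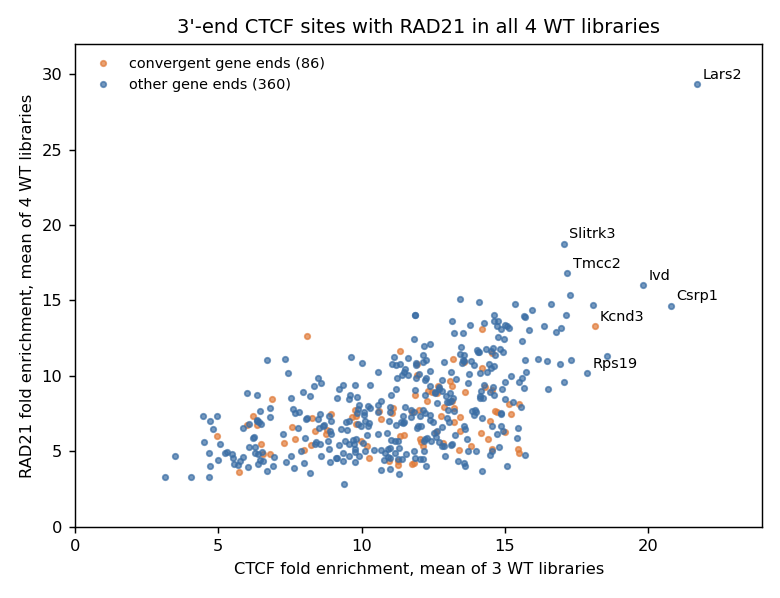
Mean WT CTCF fold enrichment (horizontal) against mean WT RAD21 fold enrichment (vertical) at the 446 3′-end sites with RAD21 in all 4 WT libraries, with 86 convergent ends in orange and 360 other ends in blue. Lars2 stands alone at a RAD21 fold of 29.3, and both groups of ends overlap.

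At 232 sites (23.0%) no RAD21 peak was found in any of the 16 libraries, 496 sites had RAD21 in some, and 282 (27.9%) had it in every library. Among the other sites the shares with RAD21 in none and in all were 24.6% and 27.3%. The median WT CTCF fold was 11.9 at 3′-end sites with RAD21 in all 4 WT libraries and 5.52 at those with RAD21 in none of the 4. The other CTCF sites were alike, with medians of 12.2 and 5.60. Against this, 8 sites were named as those with the highest WT CTCF fold among sites without RAD21 in any library, at 9.43 to 13.5. They belonged to Rasl10a, Rtbdn, Ssr3, Wbp1l, Sptssa, Hmcn2, Cd163 and Uqcr11, and 6 of the 8 lay before the gene end. Rasl10a, a small Ras-like GTPase, had the strongest, 312 bp before its end (chromosome 11, position 5060073). CTCF there was 7.40 to 15.0 in mutants, median 10.3, and 16.2, 12.5 and 11.8 in WT. At Uqcr11, a subunit of respiratory complex III, CTCF was 5.57 to 10.8 in mutants, median 7.14, and 11, 8.02 and 9.29 in WT. At Cd163, the haemoglobin scavenger receptor of macrophages, it was 3.72 to 16.3 in mutants, median 7.46, and 11, 6.84 and 11.2 in WT. At Rasl10a, Uqcr11 and Cd163 CTCF was present in all 14 libraries, with overlapping mutant and WT values. The mutant median lay below all 3 WT values at Rasl10a and Uqcr11, though not at Cd163. These sites too were chosen for their high WT fold, so this order cannot be read as a change in mutants. The values of 2 of the 8 sites, Rtbdn (17.1, 2.94 and 14.6 in WT) and Ssr3 (4.06, 13.7 and 16.1 in WT), depended on which of several summits of 1 peak interval was nearest, and CTCF was found there in 13 and 12 of 14 libraries. The Rtbdn site carried the fold of the neighbouring Rnaseh2a end site in WT replicates 1 and 3, and RAD21 covered that neighbour in 16 of 16 libraries.

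RAD21 covered 3′-end sites more often than CTCF sites in gene interiors, in every library. Of the 3′-end sites, 501 (49.6%) lay inside a protein-coding span. The share of 3′-end sites under a RAD21 peak ranged from 35.5% to 66.3% in the 12 mutant libraries and was 45.8%, 63.9%, 59.8% and 61.9% in WT. Gene-interior sites stood at 29.7% to 58.9% in mutants and at 39.9%, 57.6%, 51.6% and 53.6% in WT. The 3′-end share was higher in 16 of 16 libraries, by 6.79 percentage points on average (7.17 ± 1.24 in WT, SD, n = 4). An exact 2-sided sign-flip permutation test over the 16 libraries gave p = 3.05e-05, the smallest it can give, and 8.54e-05 after Benjamini-Hochberg adjustment over 14 such tests. These p-values describe the spread between libraries that share the same sites, not the spread between sites.

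Against all other CTCF sites the difference was smaller. It was 3.33 percentage points, positive in 16 of 16 libraries (exact permutation p = 3.05e-05, adjusted 8.54e-05), and 3.50 ± 1.34 in WT (SD, n = 4). When peaks with a -log10 q under 10 were dropped, which left 776 3′-end sites, it was -0.409 points (exact permutation p = 0.4), and within quartiles of CTCF strength 2.44 (exact permutation p = 0.000244). With the same number of top RAD21 peaks per list and all sites kept, it was 2.36 (exact permutation p = 3.05e-05). With all peaks, it was 2.94 points within those quartiles and positive in all 16 libraries (exact permutation p = 3.05e-05). RAD21 covered 18.9% of 3′-end sites and 16.7% of other sites in the weakest quartile in WT, 43.3% and 38.2% in the second, 72.6% and 69.2% in the third, and 95.0% and 93.3% in the strongest. From the weakest to the strongest quartile the share at gene ends thus spanned far more than the difference between classes.

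**Figure D3:**
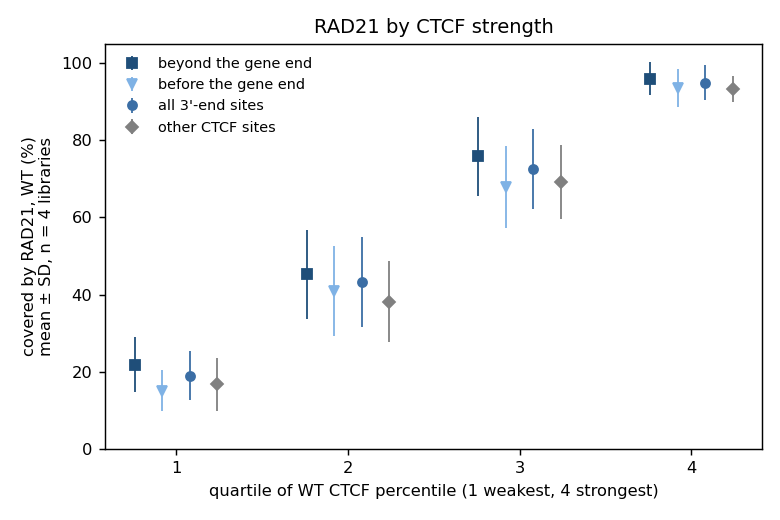
Share of CTCF sites covered by a RAD21 peak in WT (vertical, %, mean and SD of 4 libraries) in quartiles of WT CTCF strength (horizontal), for sites beyond the gene end, sites before it, all 3′-end sites and all other sites. In the weakest quartile 3′-end sites stand at 18.9% and other sites at 16.7%, and in the strongest at 95.0% and 93.3%.

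Intergenic and promoter sites gave other pictures. The 3′-end share differed from the intergenic share by -0.264 points on average (higher in 8 of 16 libraries, exact permutation p = 0.534), a comparison added after the shares were seen. Within quartiles of CTCF strength it was 1.15 (13 of 16 libraries, exact permutation p = 0.00967, adjusted 0.0135), and with peaks of -log10 q of at least 10 it was -5.52 (exact permutation p = 6.1e-05). Intergenic sites were covered in 48.6%, 64.0%, 59.3% and 60.6% of cases in WT. Against promoter sites, 3′-end sites were higher by 4.73 points on average (12 of 16 libraries, exact permutation p = 0.00961, adjusted 0.0135), with 4.99 ± 5.57 in WT (SD, n = 4). This difference moved with the length of the RAD21 list. In the shortest list, Del(CBS1-5) replicate 2 with 16676 peaks, RAD21 covered 35.5% of 3′-end sites and 27.4% of promoter sites. In the longest, Del(CBS2) with 48102 peaks, it covered 66.3% and 74.7%. With the same number of top peaks, 16676, taken from every RAD21 list, the difference was 12.1 points (exact permutation p = 3.05e-05).

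**Figure D4:**
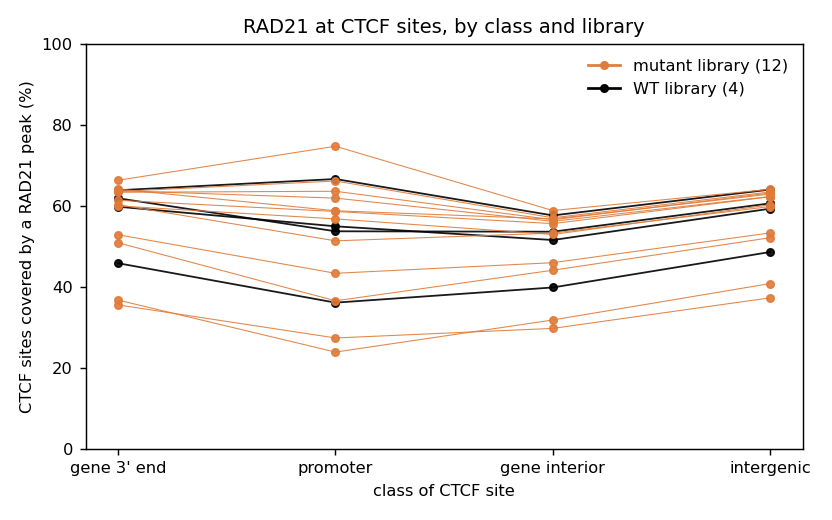
Share of CTCF sites covered by a RAD21 peak (vertical, %) at gene 3′ ends, promoters, gene interiors and intergenic positions, 1 line per library, with 12 mutant libraries in orange and 4 WT libraries in black. Each line is higher at 3′ ends than in gene interiors, and the promoter share ranges from 23.9% to 74.7%.

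RAD21 also differed between the sides of the gene end, being found more often beyond it. Of the 1010 sites, 578 (57.2%) lay beyond the end and 432 before it. RAD21 covered 60.8% ± 8.18 of the sites beyond the end and 53.9% ± 8.17 of those before it in WT (SD, n = 4). The difference was 7.47 points over the 16 libraries, positive in each (exact permutation p = 3.05e-05, adjusted 8.54e-05), and 6.94 ± 0.618 in WT. Sites beyond the end were also somewhat stronger for CTCF, with a median WT percentile of 52.1 against 47.9 before it, percentiles being ranks of the fold among all sites of a library. Within quartiles of CTCF strength the difference was 6.02 points, positive in 16 of 16 libraries (exact permutation p = 3.05e-05). RAD21 was found in all 4 WT libraries at 275 of the 578 sites beyond the end (47.6%) and at 171 of the 432 before it (39.6%). Sites over 1 kb from any gene edge differed in the same direction. In WT, RAD21 covered 50.7% ± 7.64 of gene-interior and 58.1% ± 6.66 of intergenic sites (SD, n = 4). Whether the side difference goes beyond that between gene interiors and intergenic positions was not tested.

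The side difference continued outside the first kilobase. In WT, RAD21 covered 54.6% ± 7.32 of 942 sites lying 3 to 1 kb before an end and 60.2% ± 8.40 of 1095 sites lying 1 to 3 kb beyond one (SD, n = 4). Both values are close to those of the adjoining kilobase on the same side. Of the sites within 1 kb beyond an end, 69 were inside the span of another protein-coding gene, and RAD21 covered 52.9% ± 13.5 of these and 61.9% ± 7.51 of the 509 outside coding spans. CTCF sites themselves were fewest in the last 250 bp before the end, with 88, and numbered 148 in the first 250 bp beyond it. RAD21 coverage in those intervals was 48.3% ± 5.90 before the end and 59.8% ± 10.0 beyond it. No test was made between single intervals.

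**Figure D5:**
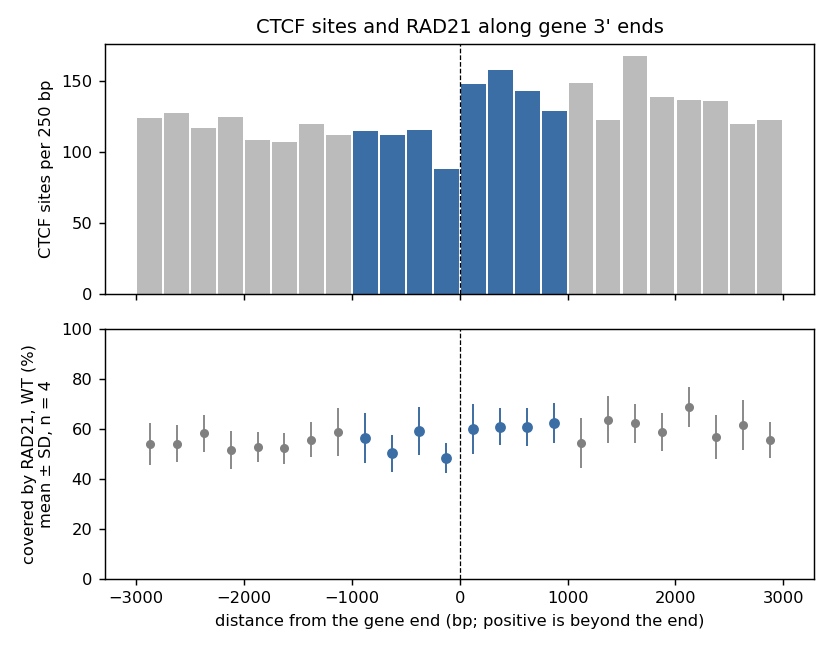
Number of CTCF sites per 250 bp (top) and share covered by RAD21 in WT (bottom, %, mean and SD of 4 libraries) by distance from the gene end in bp, positive beyond the end, with the 3′-end sites in blue and sites 1 to 3 kb away in grey. Coverage is 53.9% over the last 1 kb before the end and 60.8% over the first 1 kb beyond it.

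RAD21 summits lay to either side of the CTCF summits, at a median distance of 29 bp on average over 16 libraries (26 to 33 bp). The signed median offset along the direction of the gene was 2.0 bp downstream on average over 16 libraries (13 of 16 above 0, exact permutation p = 0.00366, adjusted 0.00652), and 2.50 ± 2.52 bp in WT (SD, n = 4). With gene ends out to 2 kb it was 0.719 bp (exact permutation p = 0.108). CTCF strength at gene ends exceeded that of other sites by 1.34 percentile points (11 of 14 libraries, exact permutation p = 0.0219, adjusted 0.0255). That difference was -0.189 within 500 bp of the end (exact permutation p = 0.748) and -4.10 with peaks of -log10 q of at least 10 (exact permutation p = 0.000366). It was 3.49 with sites in at least 2 WT libraries and 10.1 by rank of -log10 p (exact permutation p = 0.000122 for each).

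At 211 sites the gene end faced the end of a gene on the opposite strand within 5 kb, an arrangement called convergent here. RAD21 covered 59.6% ± 11.7 of convergent and 57.4% ± 7.29 of other 3′-end sites in WT (SD, n = 4). The difference was 3.27 points over the 16 libraries (13 of 16 above 0, exact permutation p = 0.00372, adjusted 0.00652), and ran from -4.63 to 8.66. Within quartiles of CTCF strength it was 4.20 (exact permutation p = 0.000793). It was 0.105 with ends out to 2 kb, 0.596 with peaks of -log10 q of at least 10, 0.933 with equal numbers of top RAD21 peaks and 0.475 with facing ends within 2 kb, none of which passed the test. Unlike the share per library, the share with RAD21 in all 4 WT libraries was 40.8% at convergent and 45.1% at other ends. The strongest convergent site lay 782 bp beyond Kcnd3, a potassium channel gene, facing Ddx20, an RNA helicase gene. Its CTCF fold was 9.74 to 22.2 in mutants, median 14.3, and 20.5, 15.2 and 18.7 in WT. This site was also chosen for its high WT fold, so the lower mutant median cannot be read as a change in mutants. RAD21 there was 8.48 to 17.9 in mutants, median 12.4, and 14.2, 12.3, 10.52 and 16.2 in WT. The site between Cd63, a tetraspanin gene, and Rdh5, a retinol dehydrogenase gene, had strong CTCF (18.1, 14.5 and 13.9 in WT) and low RAD21 (3.36, 4.39, 4.18 and 7.56 in WT). The other 4 named convergent sites lay between Fam222b and Traf4, Ube2l6 and Smtnl1, Abtb2 and Nat10, and Rtbdn and Rnaseh2a.

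The 3′-end sites were also looked up in gene lists. Over all genes with a known strand, 949 of 16457 (5.77%) had one. The counts that follow are descriptions, too small to place a list above or below that share. Of 24 Hox genes with a strand, 3 had a site, Hoxb8, Hoxd10 and Hoxd11, and none of these had RAD21 in all 4 WT libraries. Hoxb8 had CTCF of 3.92, 5.66 and 4.21 in WT, and RAD21 in 0 of 16 libraries. Of 35 trunk patterning genes, 3 had a site. At Irx3, a neural tube transcription factor, the site lay 849 bp beyond the end, with RAD21 of 5.95 to 9.30 in mutants, median 6.93, and 7.91, 5.85, 6.85 and 10.8 in WT. At Tbx1, a pharyngeal transcription factor, it lay 338 bp beyond the end, with RAD21 of 3.54 to 7.02 in mutants, median 4.28, and 6.29, 3.63, 3.67 and 5.03 in WT. At Ptch1, the Hedgehog receptor, RAD21 was found in 4 of 12 mutant and 0 of 4 WT libraries. Of 17 imprinted genes only Rasgrf1, a Ras exchange factor, had a site, 858 bp beyond its end, with CTCF of 11.4, 6.51 and 8.25 in WT and no RAD21 in 16 libraries. Of 20 genes of transcript cleavage and termination only Papola, a poly(A) polymerase, had one, 373 bp beyond its end, with RAD21 in 12 of 16 libraries. None of 17 cohesin and CTCF genes had one.

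Just inside the 1 kb limit lay the sites of Ssbp4 (1000 bp), Cdc25a (999 bp) and Rab3a (998 bp), with mean WT CTCF folds of 11.7, 11 and 6.51. Just outside, at 1001 bp, lay those of Tlr5, Itpripl1 and Dctn3, with 6.89, 4.93 and 4.53. RAD21 was found in 11, 16 and 16 of 16 libraries at the sites inside and in 6, 0 and 13 at those outside.

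Across the alleles, RAD21 at gene ends moved with the RAD21 list as a whole. The 3′-end share, averaged over the 1 to 3 libraries of an allele, was 53.6% for Del(CBS1), 63.5% with Del(CBS1-2), 55.4% for Del(CBS1-3), 62.8% with Del(CBS1-4), 44.2% for Del(CBS1-5) and 66.3% with Del(CBS2), against 57.8% ± 8.17 in WT (SD, n = 4). The share at other sites moved alike, at 50.4%, 60.5%, 52.0%, 59.4%, 41.1% and 62.6%, against 54.4% ± 7.57 in WT. The margin of gene ends over other sites was 3.27 ± 0.880 points in the 12 mutant libraries and 3.50 ± 1.34 in the 4 WT libraries, a difference of -0.227 points (exact permutation p = 0.707). Its sign depended on single WT libraries, being 0.0562 without WT replicate 3 and 0.248 without WT replicate 4. For CTCF, a peak was found at 92.7% ± 7.27 of 3′-end sites and 90.2% ± 9.76 of other sites in the 11 mutant libraries (SD), while WT stood at 100% by the choice of sites, so no test was made. The margin of 3′-end sites over other sites was 2.52 ± 2.52 points in mutants.

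No single 3′-end site found in every library changed rank past the test. Ranks of the fold within each library, on a normal-score scale, were fitted with limma over all sites present in every library, and called at an adjusted p (Benjamini-Hochberg) under 0.05. For CTCF, 738 3′-end sites were among 30182 tested. In the comparison of all mutants with WT 0% of all sites were called, with 534 at an unadjusted p under 0.05, of which 6 were 3′-end sites. In Del(CBS1-5) against WT 0% were called, with 488 at an unadjusted p under 0.05, of which 14 were 3′-end sites. For RAD21, 282 3′-end sites were among 12643 tested. In all mutants against WT 0% were called, and 8 of 332 sites at an unadjusted p under 0.05 were 3′-end sites. In Del(CBS1-5) against WT 6 sites were called (0.0475%), none of them a 3′-end site, and 30 of 1226 at an unadjusted p under 0.05 were. The median 3′-end estimates were -0.02 and -0.07 for CTCF in all mutants and in Del(CBS1-5), and 0.00 and 0.06 for RAD21, against 0.00 and -0.01 for CTCF and 0.00 and 0.01 for RAD21 over all sites tested. The CTCF median in Del(CBS1-5) was -0.01 without its replicate 1, -0.15 without its replicate 2 and 0.01 where -log10 p was ranked instead. The RAD21 median in Del(CBS1-5) was 0.01 without its replicate 2 and -0.00461 with the replicate number as a block. The Hoxd11 and Hoxd10 end sites were not in this fit, because they lack a peak in some libraries.

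The 3′-end sites with the most extreme estimates in Del(CBS1-5) had wide errors. For CTCF the lowest was at Gbe1, the glycogen branching enzyme gene, at -0.93 ± 0.36 normal-score units (SE; limma adjusted p = 1.00), and the highest at Myh3, the embryonic myosin heavy chain gene, at 1.21 ± 0.46 (limma adjusted p = 1.00). For RAD21 the lowest was at Mrpl1, a mitochondrial ribosomal protein gene, at -1.16 ± 0.40 (limma adjusted p = 0.319). The highest was at Dcakd at 1.18 ± 0.39 (limma adjusted p = 0.307). The RAD21 score at Mrpl1 was -2.04 and -0.07 in the Del(CBS1-5) libraries and ran from -0.25 to 0.66 in WT, so 1 mutant library lay far below the WT range and the other inside it. Without Del(CBS1-5) replicate 1 the Mrpl1 estimate was -2.14 ± 0.43 (SE). Without replicate 2 the estimate at 1700001O22Rik was -2.93 ± 0.39, against -1.04 ± 0.78 with both replicates. Each of these fits left a single Del(CBS1-5) library, assumed to vary like the other groups, so no call was drawn from them. For all mutants against WT the lowest CTCF estimate was -0.59 ± 0.27 at Tmem132b and the highest 1.01 ± 0.96 at Armc7, whose value again depended on the nearest of several summits. For RAD21 they were -0.68 ± 0.25 at Cyp4f16, a cytochrome P450 gene, and 0.68 ± 0.28 at Fbxl14, an F-box protein gene, with limma adjusted p of 1.00 for all 4.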

How the data were processed

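The authors deposited 1 peak list per library, called for that library alone on mm10. The submitters' processing notes name MACS2 2.1.1.20160309, Bowtie2 2.3.5, cutadapt 1.16, bedtools 2.27.1, Picard 2.19.0 and SAMtools 1.9; their options are not given in the sources used here. The signal column as deposited holds a ratio (summit fold enrichment against local background). Each deposited peak also has the caller's -log10 p and -log10 q, and the deposited score is a display value that was not used. The lists hold no read counts, so no depth-based interval was possible. Folds were ranked within a list for the percentiles, the quartiles of CTCF strength and the limma fits. Folds printed for single sites are as deposited, neither ranked nor scaled between libraries.

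A library detected a site when a peak covered its median summit, the nearest summit being used. Genes came from RefSeq spans on GRCm38.p6 and strands from the RefSeq start windows. Both edges of genes without strand counted as starts. Positions are counted from 1. Class shares were compared by exact sign-flip permutation over libraries and alleles by exact permutation. Benjamini-Hochberg adjustment ran over 14 tests, 5 of them added after the data were seen. For ranks, limma 3.58.1 (R 4.3.3, trend, robust) was used. All mutants against WT were fitted as 2 groups, and Del(CBS1-5) against WT with 1 coefficient per genotype. The code was tested on simulated data. The rest used scipy 1.17.1, numpy 2.4.6, matplotlib 3.10.9 and pandas 2.3.3 in Python 3.11.15. Embryos were dissociated singly, so libraries were treated as separate samples. The members, lists and comparisons were chosen with earlier results of these data known. Named sites were the 12 with the highest WT CTCF fold, the 8 with the highest RAD21 fold, the 8 strongest without RAD21, the 6 strongest convergent ones, the extremes of each limma comparison, up to 4 per gene list, 3 on each side of the 1 kb limit and those at HoxD; the Ptf1a, A630095N17Rik and Srgap3 sites were chosen after their values were seen. Alternatives were 500 bp or 2 kb from the end, sites in at least 2 WT libraries, peaks of -log10 q of at least 10, a summit within 100 bp, equal numbers of top RAD21 peaks, facing ends within 2 kb, ranks of -log10 p, the weakest 25% left out, a replicate block and each replicated library left out, and, added after the data were seen, strandless genes ignored, all listed starts excluded and quartiles of CTCF strength for single classes.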

Additional observations from a re-analysis of the deposited data

How the results depend on the processing

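The excess of RAD21 beyond the gene end over that before it kept its direction and its call under each of its 24 alternatives, at 4.27 to 8.17 percentage points. So did the excess over gene interiors (2.90 to 7.95 in 23), the excess over promoters (4.09 to 12.1 in 24) and the excess over other sites within quartiles of CTCF strength (2.22 to 3.27 in 23). By library the promoter excess was less even, above 0 in 12 of 16 and -8.40 in the longest RAD21 list. None of its alternatives lengthened a RAD21 list, so they could not show such a reversal. With peaks of -log10 q of at least 10, the excess over all other sites was -0.409, the convergent excess 0.596, the CTCF percentile difference -4.10, the mutant minus WT difference 0.270 and the difference from intergenic sites -5.52 (exact permutation p = 6.1e-05). With ends out to 2 kb, the convergent excess was 0.105, the RAD21 offset 0.719 bp and the mutant minus WT difference 0.0264, and within 500 bp the CTCF percentile difference was -0.189. With equal numbers of top RAD21 peaks, the convergent excess was 0.933, the mutant minus WT difference 0.327 and the difference from intergenic sites -2.55 (exact permutation p = 9.16e-05). The convergent excess was 0.475 with facing ends within 2 kb, and the CTCF percentile difference 1.05 with strandless genes ignored (exact permutation p = 0.0594). The difference from intergenic sites was 0.738 with sites in at least 2 WT libraries (exact permutation p = 0.0482), 0.0215 with all listed starts excluded (exact permutation p = 0.96) and 1.15 within quartiles (exact permutation p = 0.00967). Leaving out a library moved the mutant minus WT difference between -0.657 and 0.248, above 0 without WT replicate 3 (0.0562) or 4 (0.248). The cause of these shifts was not tested.

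In the rank fits, 0 3′-end sites were called in each comparison. The same held when a library was left out, apart from RAD21 of Del(CBS1-5) without either of its replicates. Those fits leave a single Del(CBS1-5) library, so no call was drawn from them. Out to 2 kb, 1 site was called in RAD21 of Del(CBS1-5), Yeats4 (-2.02 ± 0.36, SE, limma adjusted p = 0.0180). Replicate numbers did not pair the samples evenly. Deviations of same-numbered libraries correlated at 0.0266 on average for CTCF (21 pairs, -0.255 to 0.270) and -0.00852 for RAD21 (31 pairs, -0.191 to 0.278). With the replicate number as a block, 0 3′-end sites were called in each of the 4 comparisons. For CTCF in all mutants against WT, the block raised the sites at an unadjusted p under 0.05 from 534 to 1003. Unknown depth, strandless genes and short RAD21 lists limit what an absent peak shows.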
